A study of Homo sapiens with 30 samples.

Results

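10 genes that set or mark epithelial identity were followed through the RNA data: the grainyhead-like transcription factors GRHL1, GRHL2 and GRHL3, the epithelial splicing regulators ESRP1 and ESRP2, the OVO-like zinc finger repressors OVOL1 and OVOL2, and the epithelial surface or anchoring proteins EPCAM, ST14 and LAD1. They were chosen by symbol with earlier results of these data known, as 10 of the 27348 genes present in both deposited count tables. Their called shares and medians beside those of all genes are therefore a description. All 10 passed the filter on low counts. The cells were RUES2, a human embryonic stem cell line, kept in TeSR E7 medium with ROCK inhibitor in every group. RNA was sequenced in 16 libraries, 2 for each of 8 groups.

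At 48 h, WNT_CPI_ACT cells had received 1 day of Wnt3a at 100 ng/mL together with 1 µM CPI-203, then 1 day of Activin A at 10 ng/mL, and WNT_ACT cells the same without CPI-203. WNT_E7 cells had Wnt3a and then medium alone, and E7_ACT cells had medium and then Activin A. At 24 h, WNT_CPI cells had Wnt3a with CPI-203, WNT cells Wnt3a, E7_CPI cells CPI-203, and E7 cells neither. CPI-203 inhibits the BET bromodomain proteins, readers of acetylated histones that help transcription to proceed. Day 2 had no CPI-203, no 48 h group without any factor was analysed here, and all cells came from 1 line. The labels do not tell whether replicates were grown as separate cultures, and the spread behind each p-value is that among these samples, which may be technical.

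Human embryonic stem cells grow as an epithelial sheet, and they lose that state as they enter the primitive streak. Grainyhead-like factors bind enhancers of junction genes and keep them open, OVO-like factors repress genes of the mesenchymal state, and the ESRP proteins favour the epithelial exons of many transcripts. ST14 (matriptase) is a membrane serine protease of epithelia, EPCAM a cell adhesion protein of epithelial and pluripotent cells, and LAD1 (ladinin-1) a protein of epithelial anchoring filaments.

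The 16 libraries held 36268324 to 43347733 counts each. Levels below are CPM, counts scaled to a common TMM-adjusted library size, and differences are log2 fold changes, each with a standard error (SE), from edgeR's quasi-likelihood test, adjusted by Benjamini-Hochberg over 17355 genes and called at an adjusted p under 0.05. All 8 pluripotency markers were detected in every group, with summed levels of 4866 to 9236 CPM per library. The sums do not show single markers. NANOG had 1.22 to 1.31 CPM in WNT_CPI, against 138 to 196 CPM in WNT. It had 0.809 to 0.933 CPM in E7_CPI, against 71.6 to 112 CPM in E7. The E7_CPI library of replicate 1 stood apart. Its column followed the gene order of the other table and was read in that order. So read, it differed from E7_CPI replicate 2 far less than other replicates differed from each other, with a mean chi-square per gene of 3.53, against 115 to 192 in the 7 other groups. Over 1922 genes that separate the replicate numbers in those groups it scored -1.48, among the replicate 2 libraries (-1.61 to -1.29) and not the replicate 1 libraries (-0.00616 to 0.138). Differences of the members that rest on E7_CPI are therefore given with and without it. All 8 groups share 1 estimate of the spread, so this library also enters the p-values and called shares of every other comparison. Those are from the fit that holds it, except where the replicate block or the fit is named. In these bulk libraries, fewer cells of a type and less RNA per cell cannot be told apart.

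CPI-203 lowered most of the members within 24 h, in cells with Wnt3a as well as without it. Of the 10 members, 7 fell and 1 rose in WNT_CPI against WNT, where 31.0% of all 17355 genes were called, 3113 lower and 2261 higher. In E7_CPI against E7, 7 fell and 1 rose as well, beside 32.7% of all genes called, 3061 lower and 2610 higher. Without the E7_CPI library of replicate 1, 5 members fell and 0 rose (17.5% of all genes called), and 8 fell and 1 rose when that fit also held the replicate number as a block (44.0% called). The median member differed by -1.71 in WNT_CPI against WNT, and the median of all genes by -0.01.

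**Figure D1:**
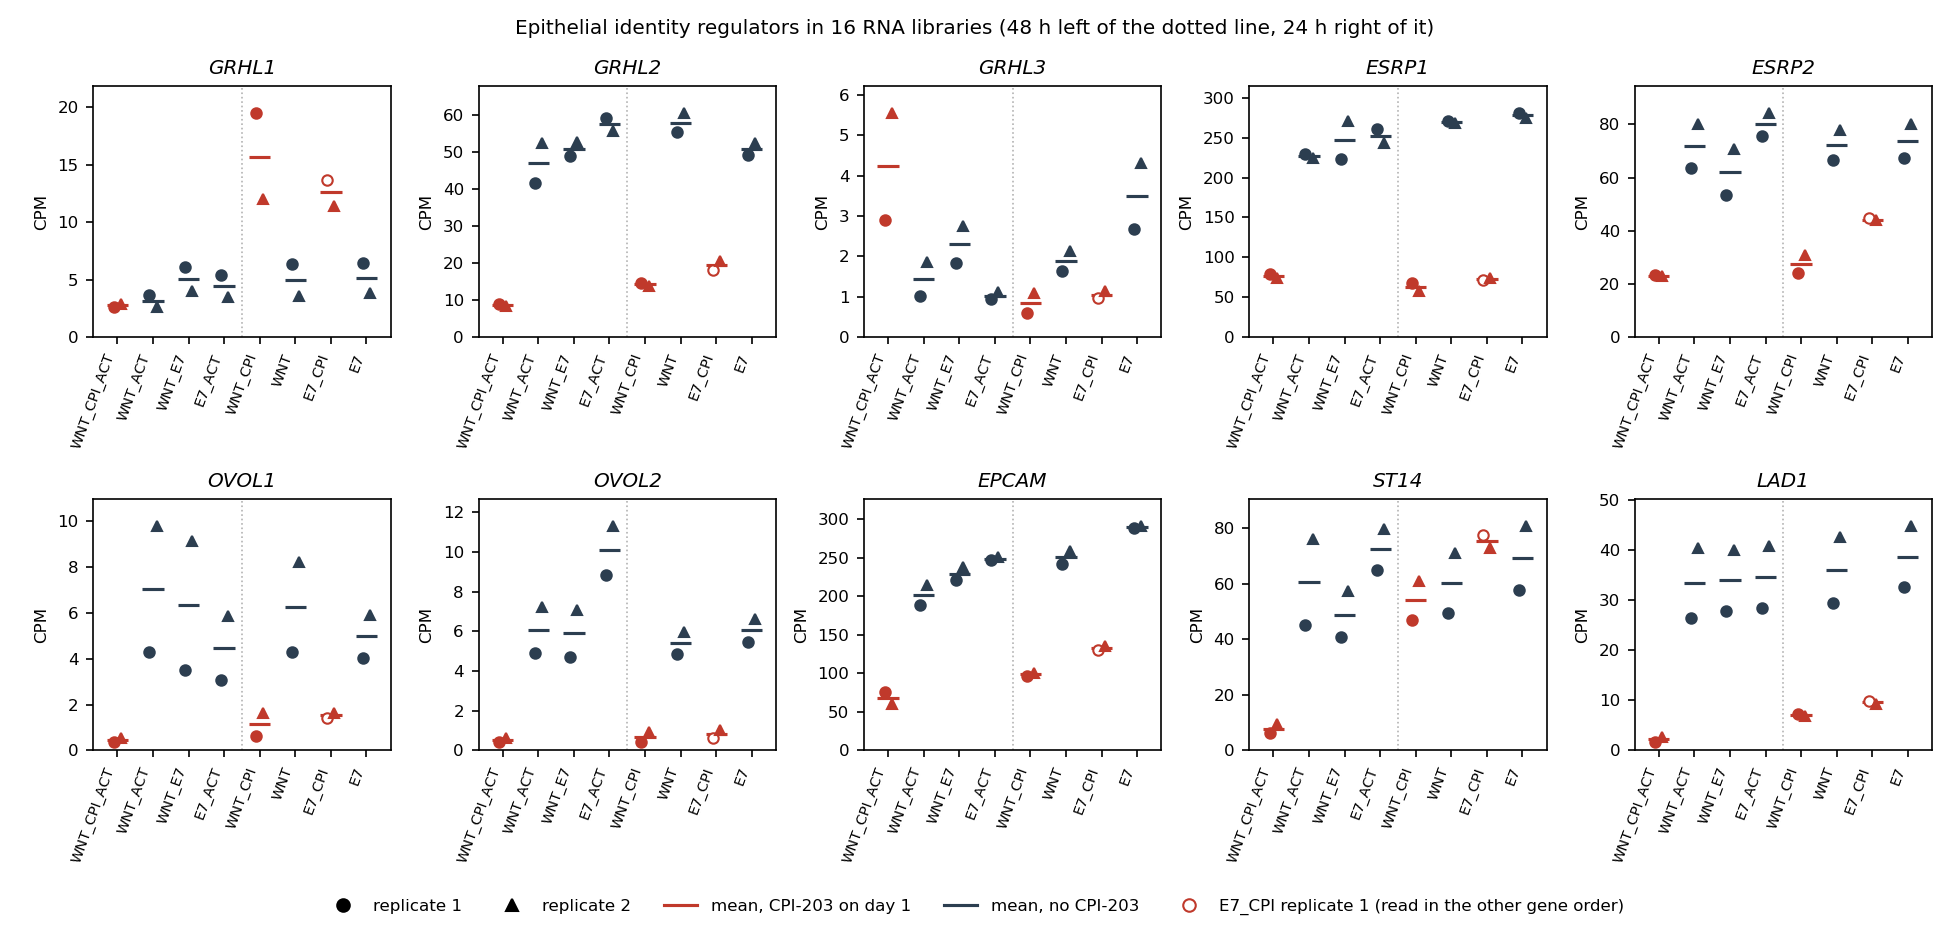
Level in CPM (linear axis from 0) of each member in every library, by group, with 48 h groups left and 24 h groups right of the dotted line; circles are replicate 1, triangles replicate 2, short bars group means, and red marks groups given CPI-203 on day 1. ST14 is lowest in WNT_CPI_ACT (6.25 and 9.46 CPM), and GRHL1 is highest in WNT_CPI (19.5 and 12.0 CPM).

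Among the grainyhead-like factors, GRHL2, which in mouse and human epithelia activates CDH1 and claudin genes, had 14.6 and 13.9 CPM in WNT_CPI, against 55.5 and 60.7 CPM in WNT. Both WNT_CPI libraries lay far below both WNT libraries, and the difference was -2.03 (SE 0.14, edgeR adjusted p = 6.28e-06). In E7_CPI the level was 18.3 and 20.7 CPM, against 49.3 and 52.5 CPM in E7. That difference was -1.39 (SE 0.14, edgeR adjusted p = 6.03e-05), and -1.30 without the E7_CPI library of replicate 1, still called.

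GRHL1, which acts with GRHL2 and GRHL3 in the epidermis, went the other way. It had 19.5 and 12.0 CPM in WNT_CPI, against 6.40 and 3.61 CPM in WNT, a rise of 1.65 (SE 0.39, edgeR adjusted p = 0.00882). The groups did not overlap, but the call was lost without WNT replicate 2, without WNT_CPI replicate 1 and in a fit of these 4 libraries alone (adjusted p of at most 0.0766 over the alternatives run). In E7_CPI it had 13.7 and 11.4 CPM, against 6.43 and 3.80 CPM in E7, a rise of 1.30 (SE 0.39, adjusted p = 0.0261). Without the E7_CPI library of replicate 1 the difference was 1.15 with an adjusted p of 0.126, and it was called again when that fit held the replicate block (1.48, adjusted p = 0.000762).

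GRHL3, the member needed in mice for the skin barrier and for closing the spinal neural tube, had 0.588 and 1.09 CPM in WNT_CPI, against 1.64 and 2.13 CPM in WNT. Both WNT_CPI libraries were the lower ones, yet the difference of -1.16 (SE 0.45) had an adjusted p of 0.0767 in edgeR. With the replicate number as a block in the model it was called lower (adjusted p = 0.00171; 52.9% of all genes called). In E7_CPI it had 0.961 and 1.14 CPM, against 2.67 and 4.32 CPM in E7, and fell by 1.73 on the log2 scale (SE 0.45, edgeR adjusted p = 0.0137). Without the E7_CPI library of replicate 1 the adjusted p was 0.101, and 0.000577 when that fit held the replicate block.

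Both splicing regulators fell. ESRP1 had 67.5 and 58.0 CPM in WNT_CPI, against 270.3 and 268 CPM in WNT, a difference of -2.10 (SE 0.12). In E7_CPI it had 71.7 and 74.0 CPM, against 281 and 275 CPM in E7, a difference of -1.93 (SE 0.12), and -1.91 and still called without the E7_CPI library of replicate 1. The CPI-203 libraries were thus near one level with or without Wnt3a, far below the rest. ESRP2 had 24.0 and 30.9 CPM in WNT_CPI, against 66.6 and 77.7 CPM in WNT, a difference of -1.39 (SE 0.19, edgeR adjusted p = 0.000316). Its E7_CPI libraries, at 44.6 and 43.9 CPM, were also below the E7 libraries, at 67.5 and 80.0 CPM. That difference of -0.74 (SE 0.18, edgeR adjusted p = 0.0108) was the smallest among the members called there, and without the E7_CPI library of replicate 1 its adjusted p was 0.0658, and 0.000462 when that fit held the replicate block.

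The OVO-like repressors, which in mouse and human epithelial cells hold down ZEB1 among other genes, had few counts in groups given CPI-203, as few as 15 for OVOL1 and 17 for OVOL2 in a library. OVOL2 had 0.416 and 0.925 CPM in WNT_CPI, against 4.85 and 5.99 CPM in WNT, and fell by 3.01 on the log2 scale (SE 0.42, edgeR adjusted p = 0.000394). It had 0.631 and 1.03 CPM in E7_CPI, against 5.48 and 6.64 CPM in E7, a difference of -2.86 (SE 0.41) that was -2.55 and still called without the E7_CPI library of replicate 1. Neither pair of groups overlapped. OVOL1 had 0.612 and 1.65 CPM in WNT_CPI, against 4.29 and 8.23 CPM in WNT, a difference of -2.46 (SE 0.65, edgeR adjusted p = 0.0153). That call was lost in the same 3 fits as that of GRHL1 (adjusted p of at most 0.110). In E7_CPI against E7 the OVOL1 difference of -1.69 (SE 0.63) was not called (edgeR adjusted p = 0.0634), although the libraries did not overlap (1.43 and 1.65 CPM in E7_CPI, 4.03 and 5.92 CPM in E7). It was called by DESeq2, and without the E7_CPI library of replicate 1 its adjusted p was 0.239. With the replicate block in that last fit it was called lower (-2.09, SE 0.31, adjusted p = 0.000366).

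The surface and anchoring proteins did not move together at 24 h. EPCAM had 97.1 and 101 CPM in WNT_CPI, against 242 and 259 CPM in WNT, and fell by 1.34 on the log2 scale (SE 0.12). LAD1 had 7.30 and 6.89 CPM in WNT_CPI, against 29.4 and 42.6 CPM in WNT, and fell by 2.34 (SE 0.32, edgeR adjusted p = 0.000359). In E7_CPI the levels were 130.5 and 135 CPM for EPCAM, against 288 and 291 CPM in E7, and 9.85 and 9.29 CPM for LAD1, against 32.5 and 44.7 CPM in E7. Both genes were called lower there (-1.13, SE 0.12, for EPCAM and -2.01, SE 0.32, for LAD1), also without the E7_CPI library of replicate 1 (-1.10 and -2.06). ST14 was the exception, with 47.1 and 61.0 CPM in WNT_CPI, against 49.5 and 70.9 CPM in WNT. These libraries overlapped, and the difference was -0.16 (SE 0.31, edgeR adjusted p = 0.755). In E7_CPI, ST14 had 77.5 and 73.0 CPM, against 57.7 and 80.7 CPM in E7, again overlapping, with a difference of 0.12 (SE 0.31), and 0.08 (SE 0.40) without the E7_CPI library of replicate 1.

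**Figure D2:**
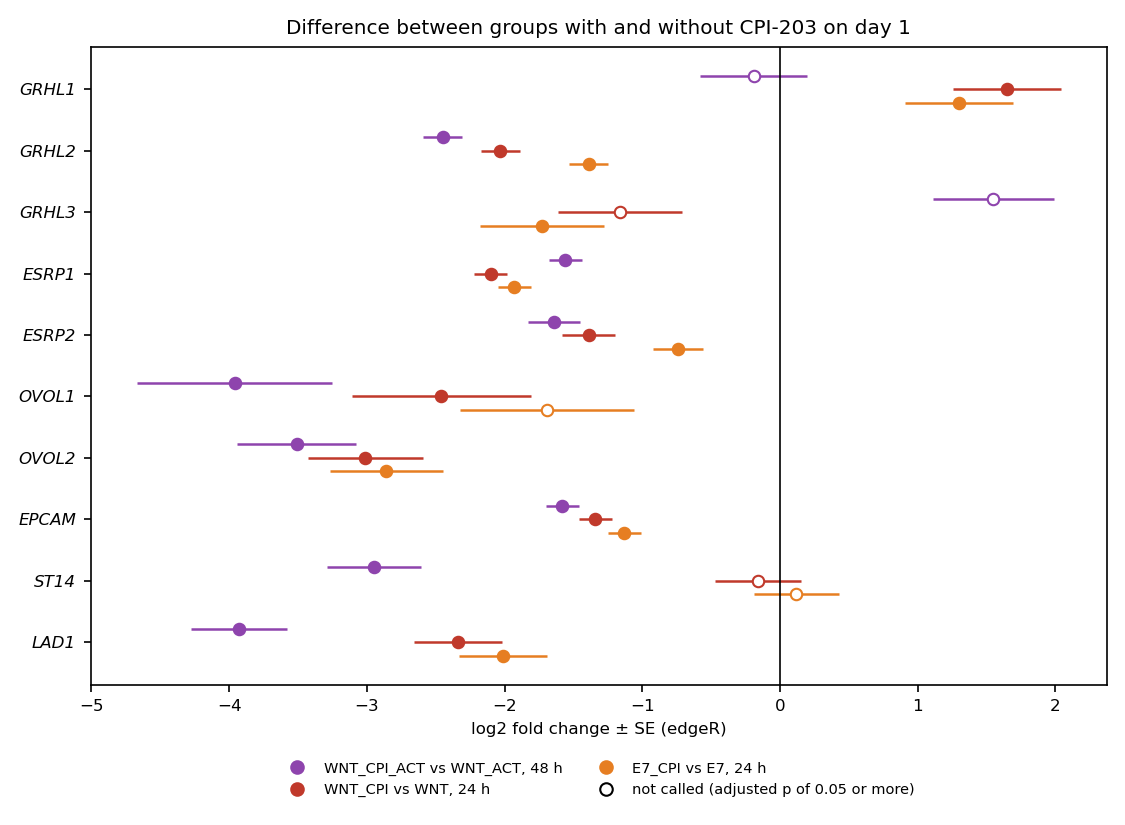
Log2 fold change with its SE (horizontal bars) for each member between groups with and without CPI-203 on day 1, from edgeR; filled points were called, open points were not. ST14 lies at -0.16 in WNT_CPI against WNT and at -2.95 in WNT_CPI_ACT against WNT_ACT, and GRHL1 at 1.65 and -0.19 in the same comparisons.

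The RefSeq promoter table (GRCh38.p14) held windows of 300 bases, 250 before to 50 after a gene's start, for 3 members, GRHL1, GRHL3 and LAD1. These were all the members with a window there, so most members that fell could not be looked at. In E7_CPI against E7, GRHL1 was called higher and the other 2 lower. The GRHL1 and GRHL3 calls there were lost without the E7_CPI library of replicate 1, and regained when that fit held the replicate block. Capitals mark the E-box CAGGTG or its reverse complement CACCTG, the core that ZEB and SNAI repressors bind; the motif was searched on both strands.
GRHL1, chr2:9951443-9951742, + strand: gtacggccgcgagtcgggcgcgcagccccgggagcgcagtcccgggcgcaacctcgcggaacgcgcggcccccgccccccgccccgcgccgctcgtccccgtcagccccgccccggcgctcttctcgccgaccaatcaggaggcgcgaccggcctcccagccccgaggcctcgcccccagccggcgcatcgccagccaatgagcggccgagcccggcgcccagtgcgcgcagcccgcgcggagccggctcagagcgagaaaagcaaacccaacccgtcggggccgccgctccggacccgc
GRHL3, first listed start, chr1:24319107-24319406, + strand: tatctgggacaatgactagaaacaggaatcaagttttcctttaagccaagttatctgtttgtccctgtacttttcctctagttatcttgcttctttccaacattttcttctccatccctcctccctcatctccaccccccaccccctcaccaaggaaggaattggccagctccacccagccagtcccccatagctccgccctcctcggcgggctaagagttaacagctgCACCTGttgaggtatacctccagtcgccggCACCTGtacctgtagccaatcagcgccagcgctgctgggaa
LAD1, chr1:201399275-201399574, - strand: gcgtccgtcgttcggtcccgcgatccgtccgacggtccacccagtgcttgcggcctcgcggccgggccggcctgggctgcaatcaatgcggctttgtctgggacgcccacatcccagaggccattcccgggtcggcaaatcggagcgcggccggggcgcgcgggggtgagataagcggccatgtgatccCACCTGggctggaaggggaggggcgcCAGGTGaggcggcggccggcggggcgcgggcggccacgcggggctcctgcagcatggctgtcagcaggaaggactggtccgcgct
The E-box occurred 2 times each in the GRHL3 and LAD1 windows and in none of the GRHL1 window, nor in the window of a second listed GRHL3 start, which is not shown, against 20.6% of all 35116 windows with at least 1 match. The grainyhead core AACNGGTT, searched on both strands, was in none of these windows, against 1.73% of all windows. The GRHL1 window held 52 CpG dinucleotides, the LAD1 window 38 and the GRHL3 windows 7 and, at the second start, 10, against a median of 14. These matches describe the letters of the windows and no binding.

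Wnt3a alone moved no member past the threshold. In WNT against E7, 0 of 10 members were called, also by DESeq2, and 0 had an unadjusted p under 0.05; 0.605% of all genes were called. The differences ran from -0.89 for GRHL3 to 0.33 for OVOL1. Under CPI-203, the Wnt3a comparison (WNT_CPI against E7_CPI, 0.386% of all genes called) also gave 0 called members in edgeR and DESeq2, with 3 at an unadjusted p under 0.05. Those were ESRP2 (-0.69, SE 0.18), GRHL2 (-0.45, SE 0.14) and EPCAM (-0.42, SE 0.12), each lower in both WNT_CPI libraries than in either E7_CPI library. Without the E7_CPI library of replicate 1 they were -0.68, -0.54 and -0.44, each with an adjusted p of 1.00. The test of whether CPI-203 acted differently with Wnt3a than without it called 0 members in edgeR and DESeq2, with 2 at an unadjusted p under 0.05 and 0.0115% of all genes called. Those were GRHL2 (-0.64, SE 0.19) and ESRP2 (-0.66, SE 0.26), and without the E7_CPI library of replicate 1 they were -0.73 and -0.65, again with 0 members called.

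The 48 h groups without CPI-203 gave no called member without the replicate block either. In WNT_ACT against WNT_E7, which differ in Activin A on day 2 (0.882% of all genes called), 0 members were called by edgeR or DESeq2 and 0 had an unadjusted p under 0.05. In WNT_ACT against E7_ACT, which differ in Wnt3a on day 1 (3.84% of all genes called), 0 were called by either tool and 1, EPCAM, had an unadjusted p under 0.05 (-0.30, SE 0.12). OVOL2 had 4.92 and 7.25 CPM in WNT_ACT, against 8.85 and 11.3 CPM in E7_ACT, and was called lower only with the replicate block (-0.74, adjusted p = 0.0243), in a fit that called 11.4% of all genes. In WNT_ACT against WNT, which differ in the day and in Activin A (1.68% of all genes called), 0 were called by either tool and 2 had an unadjusted p under 0.05, GRHL2 (-0.30) and EPCAM (-0.31).

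GRHL3 was the member that differed most in E7_ACT against E7, where the day differed as well as Activin A. It had 0.938 and 1.11 CPM in E7_ACT, against 2.67 and 4.32 CPM in E7, so the groups did not overlap. The difference of -1.77 (SE 0.45) was not called by edgeR (adjusted p = 0.142) and was called with the replicate block (adjusted p = 0.00288; 4.16% of all genes called). DESeq2 called this 1 member as well. No other member had an unadjusted p under 0.05 there, and 0.599% of all genes were called.

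A day after CPI-203, 8 of 10 members were lower and 0 higher in WNT_CPI_ACT than in WNT_ACT, while 5.90% of all genes were called, 694 lower and 330 higher. The median member differed by -2.05, against 0.00 for all genes. In a fit of these 4 libraries alone 0 members were called, and these 8 had the same direction there with an adjusted p of 0.264 each. Within the replicate numbers, 9 of 10 members differed in the same direction in both pairs, the exception being GRHL1. The share of all genes that did so was not counted, so this count is only a description.

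ST14, which was not called at 24 h, was now among the members that fell. It had 6.25 and 9.46 CPM in WNT_CPI_ACT, against 45.1 and 76.2 CPM in WNT_ACT. Every other library of the series lay at 40.7 CPM or above. The difference was -2.95 (SE 0.34, edgeR adjusted p = 0.00147). LAD1 was lower still than at 24 h, with 1.74 and 2.64 CPM in WNT_CPI_ACT, against 26.4 and 40.3 CPM in WNT_ACT (-3.93, SE 0.35, edgeR adjusted p = 0.000319). EPCAM had 75.2 and 60.0 CPM in WNT_CPI_ACT, against 189 and 215 CPM in WNT_ACT (-1.58, SE 0.12).

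Most of the transcription and splicing factors were low as well. GRHL2 had 8.89 and 8.42 CPM in WNT_CPI_ACT, against 41.7 and 52.6 CPM in WNT_ACT, a difference of -2.45 (SE 0.14). ESRP1 had 78.9 and 74.5 CPM in WNT_CPI_ACT, against 229 and 224 CPM in WNT_ACT (-1.56, SE 0.12). ESRP2 had 23.2 and 22.8 CPM in WNT_CPI_ACT, against 63.6 and 80.1 CPM in WNT_ACT (-1.64, SE 0.19). None of these groups overlapped. OVOL1 had 0.344 and 0.556 CPM in WNT_CPI_ACT, against 4.28 and 9.78 CPM in WNT_ACT, and fell by 3.96 (SE 0.71, edgeR adjusted p = 0.0109). That call was lost without WNT_ACT replicate 2 or either WNT_CPI_ACT library. OVOL2 had 0.435 and 0.629 CPM in WNT_CPI_ACT, against 4.92 and 7.25 CPM in WNT_ACT (-3.51, SE 0.43, edgeR adjusted p = 0.00191).

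The other grainyhead-like factors differed from GRHL2. GRHL1 had 2.66 and 2.85 CPM in WNT_CPI_ACT, against 3.64 and 2.66 CPM in WNT_ACT, and these ranges met, with a difference of -0.19 (SE 0.39, edgeR adjusted p = 0.923). GRHL3 had 2.91 and 5.56 CPM in WNT_CPI_ACT, against 1.02 and 1.87 CPM in WNT_ACT. Both WNT_CPI_ACT libraries were the higher ones, and the difference of 1.55 (SE 0.44) was not called (edgeR adjusted p = 0.0703). It was called with the replicate block (adjusted p = 0.00120; 20.2% of all genes called), by DESeq2, and without WNT_CPI_ACT replicate 1.

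Between 24 h and 48 h, the CPI-203 groups moved in several directions. WNT_CPI_ACT and WNT_CPI differ in the day, in Activin A and in the withdrawal of CPI-203, which cannot be told apart. In WNT_CPI_ACT against WNT_CPI, 1 member rose and 5 fell, where 26.9% of all genes were called, 2580 higher and 2087 lower. GRHL1 fell by 2.51 on the log2 scale (SE 0.40, edgeR adjusted p = 0.00120), with the 2.66 and 2.85 CPM of WNT_CPI_ACT set against 19.5 and 12.0 CPM in WNT_CPI. GRHL3 rose by 2.33 (SE 0.46, edgeR adjusted p = 0.00365), with 2.91 and 5.56 CPM in WNT_CPI_ACT against 0.588 and 1.09 CPM in WNT_CPI. ST14 fell by 2.78 (SE 0.33, edgeR adjusted p = 0.000211), and LAD1 by 1.70 (SE 0.32), GRHL2 by 0.72 (SE 0.14) and EPCAM by 0.55 (SE 0.12).

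Of the 4 members not called in that comparison, ESRP1 differed by 0.29 (SE 0.12), ESRP2 by -0.26 (SE 0.18), OVOL1 by -1.33 (SE 0.69) and OVOL2 by -0.33 (SE 0.43). With the replicate block ESRP1 was called higher (adjusted p = 0.0323) and OVOL1 lower (adjusted p = 0.00450), where 48.4% of all genes were called. A fit of the 4 libraries alone called 3 of the 10 members, and GRHL2, GRHL3 and EPCAM lost their calls there. Without WNT_CPI_ACT replicate 2, EPCAM lost its call too.

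**Figure D3:**
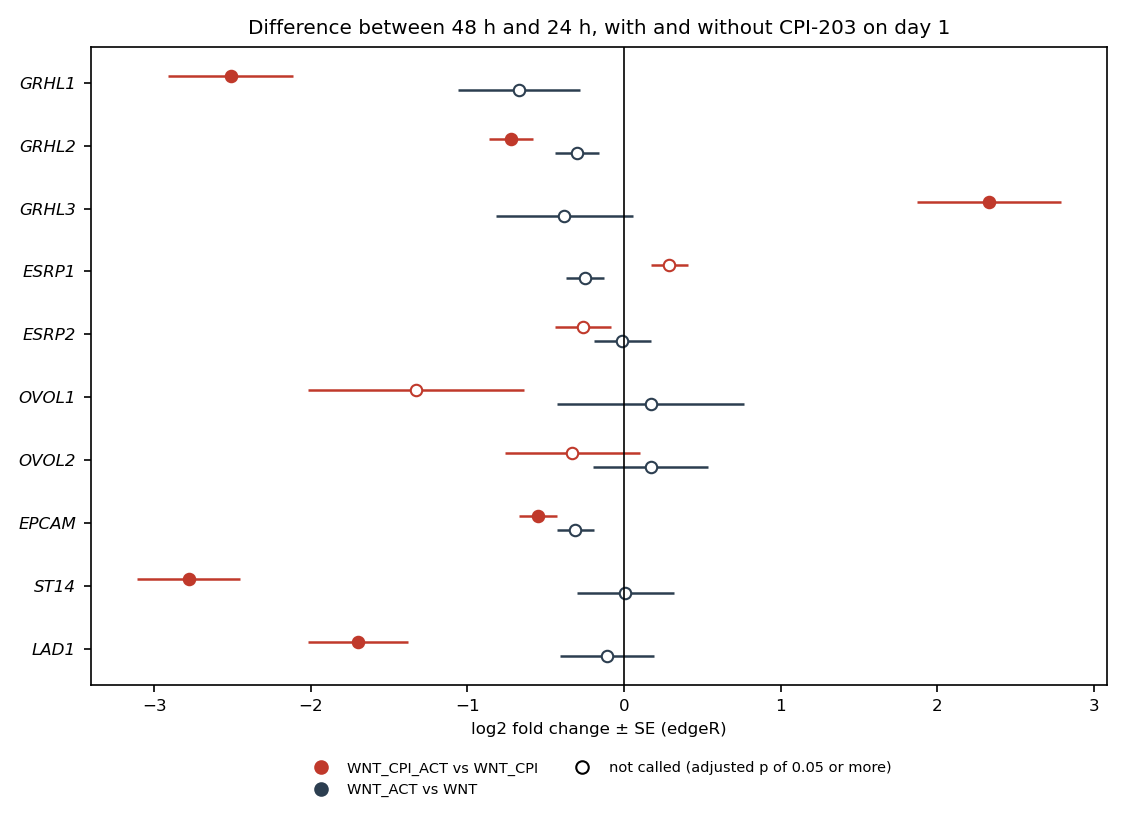
Log2 fold change with its SE (horizontal bars) for each member between 48 h and 24 h, in cells with CPI-203 on day 1 (WNT_CPI_ACT against WNT_CPI) and without it (WNT_ACT against WNT); filled points were called in edgeR, open points were not. GRHL3 lies at 2.33 and ST14 at -2.78 with CPI-203, and at -0.38 and 0.01 without it. The 48 h groups also had Activin A, and day 2 had no CPI-203.

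The difference between the CPI-203 effects on the 2 days was tested directly, as WNT_CPI_ACT minus WNT_ACT less WNT_CPI minus WNT. Activin A and the absence of CPI-203 on day 2 cannot be told apart from the day in this test. It called 3 members, GRHL3 higher, and ST14 and LAD1 lower, where 13.3% of all genes were called. With the replicate block 33.3% of all genes and 6 members were called, adding GRHL1 (-1.81, adjusted p = 0.00113), ESRP1 (0.54, adjusted p = 0.0132) and OVOL1 (-1.40, adjusted p = 0.0131). For GRHL1 without the block the value was -1.84 (SE 0.55, edgeR adjusted p = 0.0510). Leaving out 1 library gave 1 to 4 calls, the single call being without WNT_CPI replicate 1, and a fit of these 4 groups alone gave 1. The ST14 call was kept in each of these fits, while that of GRHL3 was lost without any 1 of 4 libraries and that of LAD1 without any 1 of 7.

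Other genes of the pathway were counted in lists chosen with earlier results known. In WNT_CPI_ACT against WNT_ACT, 17 of 40 junction, polarity and keratin genes fell and 0 rose, beside 5.90% of all genes called, with a median of -0.76 against 0.00 for all genes. With the replicate block 24 fell and 2 rose, where 20.2% of all genes were called. The cadherin CDH1 had a mean of 110.2 CPM in WNT_CPI_ACT and 419 CPM in WNT_ACT (-1.93, SE 0.17). The tight junction protein MARVELD3 differed by -2.49, the apical sorting protein MAL2 by -1.84 and AP1M2, the epithelial clathrin adaptor subunit, by -2.71. In WNT_CPI against WNT, 14 of the 40 fell and 3 rose, beside 31.0% of all genes called, with a median of -0.30. The block gave 20 lower and 10 higher there, where 52.9% of all genes were called. The 4 of lowest p without the block all fell: ERBB3 (-2.08), MARVELD3 (-1.95), the desmosomal plakophilin PKP3 (-2.80) and EVPL (-4.29, SE 0.57). CDS1 (0.47, SE 0.14) was among the 3 that rose. EVPL was near the floor, with means of 0.0488 CPM in WNT_CPI and 1.01 CPM in WNT. CDH1 fell by 2.58 in WNT_CPI_ACT against WNT_CPI, with means of 110.2 CPM in WNT_CPI_ACT and 657 CPM in WNT_CPI. At 24 h CDH1 had not fallen with CPI-203. It differed by 0.45 (SE 0.16, edgeR adjusted p = 0.0621) in WNT_CPI against WNT. With the replicate block it was called higher there (adjusted p = 0.0120). In E7_CPI against E7 it differed by 0.15 (SE 0.16) and was not called, with or without the block.

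Of the opposing mesenchymal genes, 14 of 15 could be tested, and 5 rose and 1 fell in WNT_CPI against WNT, where 31.0% of all genes were called. With the replicate block 6 rose and 3 fell, where 52.9% of all genes were called. Without the block, the 3 genes of lowest p were all among those that rose. The repressor SNAI2 had a mean of 21.5 CPM in WNT_CPI and 0.698 CPM in WNT (4.95, SE 0.49). VIM had means of 551 and 31.5 CPM in these groups (4.13, SE 0.42). TWIST1 differed by 2.77 (SE 0.47) at low levels, with means of 1.66 CPM in WNT_CPI and 0.239 CPM in WNT. In WNT_CPI_ACT against WNT_ACT, 3 rose and 1 fell, beside 5.90% of all genes called. With the replicate block 5 rose and 4 fell, where 20.2% of all genes were called. SNAI2 was still higher there, with 6.03 CPM in WNT_CPI_ACT and 0.556 CPM in WNT_ACT, while SNAI1 was lower (-1.21, SE 0.27).

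Among the partners and relatives, 12 of 14 could be tested, and 1 rose and 3 fell in WNT_CPI against WNT, a share near the 31.0% of all genes called. With the replicate block 1 rose and 7 fell, where 52.9% of all genes were called. The matriptase partner PRSS8 (prostasin) differed by -1.86 and the matriptase inhibitor SPINT1 by -1.02, while TFCP2L1, a grainyhead relative of pluripotent cells, rose by 1.37. RBM47, an RNA-binding protein that acts on epithelial exons, had a mean of 15.5 CPM in WNT_CPI and 135 CPM in WNT (-3.12, SE 0.18). In WNT_CPI_ACT it had 116 CPM, a rise of 2.90 (SE 0.18) over WNT_CPI, beside values of 0.29 for ESRP1 and -0.26 for ESRP2 in that comparison. In WNT_CPI_ACT against WNT_ACT, 3 fell and 0 rose, beside 5.90% of all genes called. They included SPINT1 (-1.29) and TFCP2L1 (-1.43, SE 0.37, edgeR adjusted p = 0.0495). TFCP2L1 was the gene that rose at 24 h. With the replicate block 7 fell and 1 rose in WNT_CPI_ACT against WNT_ACT, where 20.2% of all genes were called.

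**Figure D4:**
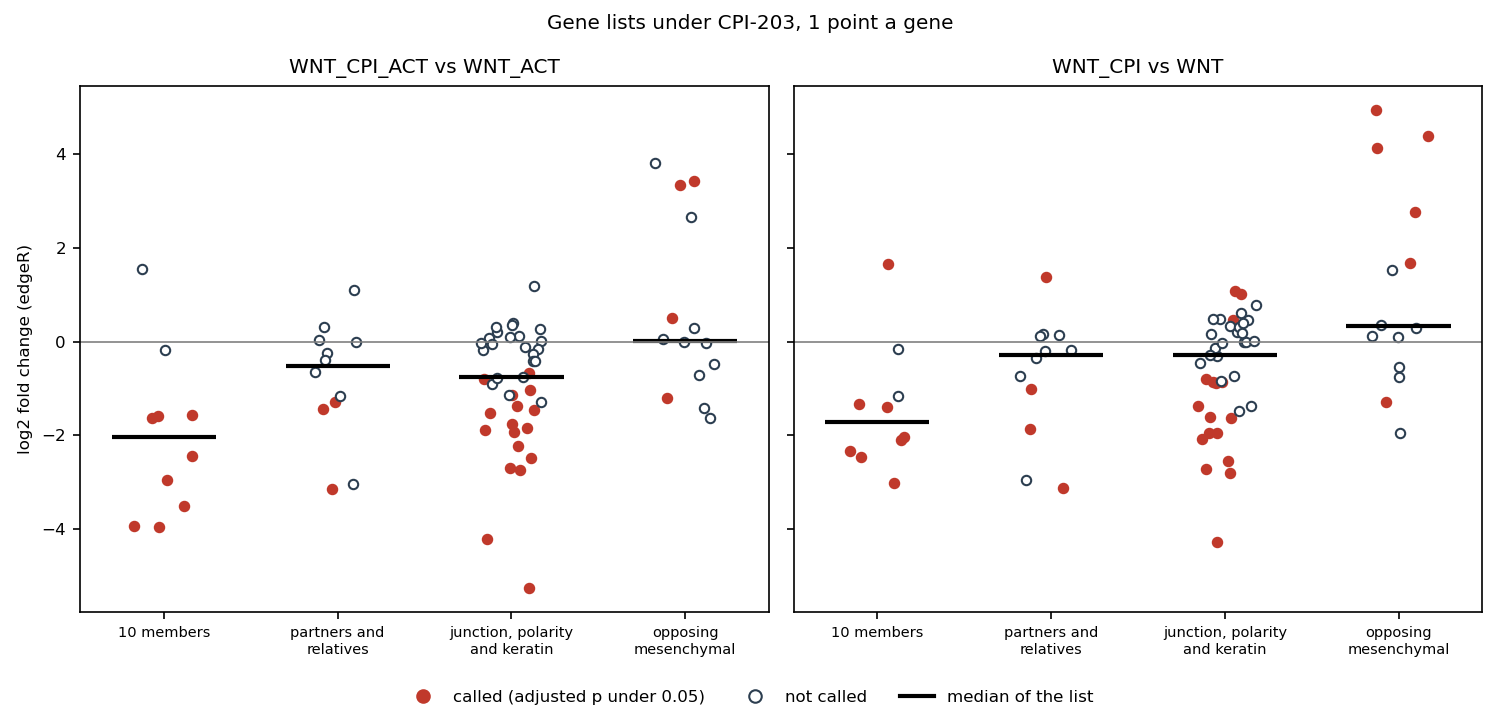
Log2 fold change of each tested gene (1 point a gene, black bars the list medians) in WNT_CPI_ACT against WNT_ACT and in WNT_CPI against WNT, for the 10 members and 3 gene lists; filled red points were called, open points were not. The members' median lies at -2.05 and -1.71, and that of the junction list at -0.76 and -0.30.

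Markers of pluripotent cells moved in the same comparisons. Of 8, 5 fell and 0 rose in WNT_CPI against WNT (31.0% of all genes called), NANOG (-7.04, SE 0.42) among them. In WNT_CPI_ACT against WNT_CPI, 5 rose and 0 fell (26.9% of all genes called), NANOG by 6.18 and DPPA4 by 2.52 among them. Summed over the 8, the level was 5878 to 8217 CPM in WNT_CPI_ACT and 5156 to 6093 CPM in WNT_CPI, with none at 0. Mesendoderm markers summed to 37.1 to 257 CPM in WNT_CPI_ACT and to 236 to 1465 CPM in WNT_ACT. Of these 6 markers, 0 were called between the 2 groups (5.90% of all genes called). With the replicate block 5 were called lower in WNT_CPI_ACT and 0 higher, where 20.2% of all genes were called. Trophoblast and amnion markers summed to 4.10 to 4.69 CPM in WNT_CPI_ACT and to 9.61 to 19.8 CPM in WNT_ACT, with 1 of 11 at 0 in WNT_CPI_ACT and 3 in WNT_ACT. The largest parts were GABRP (1.69 to 2.57 CPM in WNT_CPI_ACT, 6.92 to 13.8 CPM in WNT_ACT) and KRT7. TFAP2A went the other way (0.242 to 0.252 CPM against 0.0264 to 0.102 CPM), as did VTCN1, both near the floor. Of 8 tested, 2 fell and 0 rose there (5.90% of all genes called). In WNT_CPI against WNT 2 fell and 2 rose (31.0% called). Surface ectoderm and keratinocyte markers summed to at most 9.14 CPM in any library, and neuroectoderm markers to at most 7.79 CPM. Fibroblast markers summed to 495 to 609 CPM in WNT_CPI_ACT, 428 to 703 CPM in WNT_ACT, 376 to 485 CPM in WNT_CPI and 466 to 721 CPM in WNT. Nearly all of this came from THY1, COL1A2 and COL1A1, at 230.1 to 354, 152 to 199 and 62.0 to 101 CPM in WNT_CPI_ACT. There COL3A1 had at most 0.0484 CPM, LUM at most 0.0242 CPM and DCN 0. In WNT_CPI_ACT 1 of the 7 was at 0, and 2 were in WNT_ACT, WNT_CPI and WNT each. Of the 7, 4 could be tested. Of these, 2 fell in WNT_CPI against WNT (31.0% of all genes called) and 2 rose in WNT_CPI_ACT against WNT_CPI (26.9% called). The part of these markers in the members' differences was not tested.

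The genes whose mean levels over the 8 groups ran most like a member, among 1835 compared, are given as a description; the points share the split between groups with and without CPI-203. For GRHL2 and EPCAM this was MARVELD3 (Pearson r = 0.989 and 0.993), for ESRP2 KDF1 (0.994) and for ST14 AP1M2 (0.991). For ESRP1 it was SHFL (0.996), for OVOL2 KCNK6 (0.991), for GRHL1 SH3GL2 (0.993), and for OVOL1 and LAD1 VEGFA (0.978 and 0.989). GRHL3 had the weakest likeness, with CNTNAP1 (0.888).

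The replicate numbers themselves separated some members. OVOL1, OVOL2, ST14 and GRHL3 were lower in replicate 1 than in replicate 2 in 7 of the 7 groups other than E7_CPI, with a log2 difference of -1.37 to -0.55 for OVOL1. GRHL2 differed by -0.34 to 0.09 and ESRP1 by -0.28 to 0.22 (replicate 1 minus replicate 2).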

How the data were processed

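Counts per gene were deposited by the authors as 1 table per replicate number, each gene with its Entrez ID and symbol. Per the submitters' processing notes the tools included featureCounts and, with roles not stated, Bowtie2, deepTools, DESeq2 and MACS2. The RNA aligner, genome build and strand setting are not given in the sources used here, so reads of overlapping or antisense genes may be shared. The authors' ATAC peak list (14 libraries), deposited with no signal, was not used here. Of 626 genes on chromosome 22, 625 had no count in any library.

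Counts were fitted with edgeR 4.0.16 (R 4.3.3, limma 3.58.1). Genes were kept by filterByExpr, scaled by TMM (factors of 0.948 to 1.049) and tested 2-sided with quasi-likelihood F-tests. These were in 1 model of 8 groups with 8 residual degrees of freedom, tested on simulated data. The simulated libraries were independent, with no effect of the replicate number and no near-identical pair, so that test does not cover these traits of the data. CPM are from TMM-scaled totals. The members and lists were chosen with earlier results of these data known. All members were named, and for each member the gene of most like pattern (SD over groups at least 0.5, mean at least 3, in log2 CPM). From each list at most the 4 called genes of lowest p per comparison were named. Beyond these, CDH1 and CDS1 were named at 24 h, and single markers to show what made up a sum.

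The E7_CPI column of replicate 1 had correlations (Spearman, absolute) of at most 0.0071 with other libraries as deposited and 0.954 to 0.986 in the replicate 2 gene order; 12 cells were empty. Replicate deviations correlated at 0.539 to 0.925 in all 21 pairs of the 7 other groups (12586 genes) and at -0.148 to -0.0444 in the 7 pairs with E7_CPI, so the replicate numbers pair the samples of those 7 groups, as shown by the data and not stated in the labels. The replicate block was therefore fitted without that column, in 15 libraries, an alternative added after seeing the data. It is given beside a member's result where it changes the call. For the lists and markers it is given only for some comparisons, and there too it changed counts of calls. The block lowered the common biological coefficient of variation to 0.122, against 0.271. Other alternatives were RLE scaling, library totals alone, no filter, at least 1 CPM in 4 libraries, DESeq2 1.42.0, the compared groups alone, the block in all 16 libraries, and leaving out each library.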

Additional observations from a re-analysis of the deposited data

Results flagged for a closer look

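For 3 members, the effect of CPI-203 differed between the days by a direct test of the difference (edgeR). GRHL3 changed by 2.70 (SE 0.63, adjusted p = 0.0181), with both WNT_CPI_ACT libraries above both WNT_ACT libraries at 48 h and both WNT_CPI libraries below both WNT libraries at 24 h. ST14 changed by -2.79 (SE 0.45, adjusted p = 0.00291), its groups overlapping at 24 h and not at 48 h. LAD1 changed by -1.59 (SE 0.44, adjusted p = 0.0371), lower in both CPI-203 libraries on either day. The GRHL3 call was lost without WNT replicate 2, WNT_CPI replicate 1, WNT_ACT replicate 1 or WNT_CPI_ACT replicate 2. The LAD1 call was lost without either E7_CPI library, either WNT_CPI library, WNT replicate 1, WNT_ACT replicate 2 or WNT_CPI_ACT replicate 1. The day, Activin A and the withdrawal of CPI-203 cannot be told apart in this test, and the cause of these differences was not tested.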

How the results depend on the processing

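Of 1536 values of a member under an alternative (64 results, 24 alternatives each), 1443 kept direction and call, 43 lost a call, 37 gained one and 13 changed sign, none of these last for a member called in the fit reported. The values kept include results with no call that gained none. Most alternatives leave out 1 library, often outside the compared groups, where the value can hardly change, so that share is no measure of robustness. With the replicate block in all 16 libraries, 1 member was called in each of WNT_CPI against E7_CPI (ESRP2), E7_ACT against E7 and WNT_ACT against E7_ACT. In the change of the CPI-203 effect between days 6 were called. Without the E7_CPI column of replicate 1 the block gave 1, 1 and 6 in the last 3 of these, and -0.15 for ST14 in E7_CPI against E7. DESeq2 called 1 in E7_ACT against E7 and 5 in the change between days. The compared groups alone gave 0 in WNT_CPI_ACT against WNT_ACT, 3 in WNT_CPI_ACT against WNT_CPI and 1 in the change between days; those fits have fewer libraries, and beyond that the cause was not tested.

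Leaving out 1 library at a time gave 5 to 9 members called in E7_CPI against E7, with 5 without E7 replicate 2 or either E7_CPI library, and 1 to 4 in the change between days. Values without a call that changed sign ran over these leave-one-out ranges. OVOL1 ran from -0.21 to 0.73 in WNT against E7, from -0.06 to 1.19 in WNT_ACT against E7_ACT and from -0.55 to 0.71 in WNT_ACT against WNT. ST14 ran from -0.10 to 0.38 in E7_CPI against E7, from -0.40 to 0.12 in WNT_CPI against WNT and from -0.12 to 0.64 in WNT_ACT against WNT_E7. GRHL1 ran from -0.07 to 0.63 in WNT_CPI against E7_CPI and from -0.40 to 0.05 in WNT_CPI_ACT against WNT_ACT, and OVOL2 from -0.80 to 0.35 in WNT_CPI_ACT against WNT_CPI and from -0.96 to 0.19 in the change between days. A library left out leaves its group with 1 sample, assumed to vary like the other groups. With 2 libraries per group, small differences and the low counts of OVOL1, OVOL2 and GRHL3 were measured least precisely.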
